A study of Arabidopsis thaliana with 12 samples.

Results

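AT4G32060 is the Arabidopsis thaliana gene of a mitochondrial calcium uptake protein, and 1 of the 3439 probes on these arrays carries it alone. It was chosen by its intensity, which differed between the toc120 mutant and wild type (WT), so its own levels and its difference are given as a description, with no test. Of the 3439 probes, 692 are assigned to 1 gene, 870 to several and 1877 to none, and 0 of the shared probes list AT4G32060. Total RNA was hybridised to 12 arrays, 6 for toc120 and 6 for WT, numbered 1 to 6 in each genotype, all of the Columbia 0 accession. The labels describe toc120 as a mutant with poor import of proteins into the chloroplast through its outer envelope. Neither the labels nor the table name the mutant allele, the tissue, the plant age or the growth conditions, or say that samples stem from separate plants. The p-values below therefore reflect the scatter among these 12 samples only, and that scatter may be technical. TOC120 itself has 0 probes of its own and is on 0 shared probes, so the genotype labels could not be checked against the mutated gene.

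Calcium enters the mitochondrial matrix through a channel of the inner membrane, the mitochondrial calcium uniporter, whose pore is built by proteins of the MCU family. Proteins of the MICU family sit beside the pore, bind calcium through EF hands, and set how much calcium passes at a given cytosolic level. In Arabidopsis, loss of the AT4G32060 protein is known to raise the calcium level of the matrix, so the protein acts there as a brake on uptake. TOC120 is a receptor of the other endosymbiotic organelle, the chloroplast, where it takes part in recognising nucleus-encoded proteins for import.

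The AT4G32060 probe was lower on all 6 toc120 arrays than on all 6 WT arrays. Intensities are the values as deposited, on a linear scale from 0 to 100 whose construction the labels and the table do not give. For number 1 the deposited intensity was 1.15 in toc120 and 4.06 in WT. For number 2 it was 0.990 in toc120 and 3.46 in WT. For number 3 it was 1.23 in toc120 and 6.89 in WT. The toc120 arrays lay close together, and WT 3 was well above the first WT arrays. For number 4 the deposited intensity was 1.28 in toc120 and 5.79 in WT. For number 5 it was 1.02 in toc120 and 4.26 in WT, and for number 6 it was 1.06 in toc120 and 4.46 in WT. The groups did not overlap: the highest toc120 intensity was 1.28 and the lowest WT intensity 3.46, a ratio of 2.70. As deposited, all 6 toc120 arrays were below all 6 WT arrays for 6.51% of the 3439 probes. The probe was above 0 on all 12 arrays, and it stood at 0.990% to 1.28% of the brightest probe in toc120 and at 4.09% to 6.89% of it in WT, far from the top of the scale. In RNA of bulk samples, fewer cells of a type and less RNA per cell cannot be told apart.

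The size of the difference depended on how the arrays were brought to a common scale. The SDs here are over 3 pair means per genotype, each the mean of 2 arrays of neighbouring number (1 and 2, 3 and 4, 5 and 6). As deposited, the mean was 1.12 ± 0.117 in toc120 and 4.82 ± 1.35 in WT, so the mutant stood at 23.2% of WT. Quantile normalisation gives every array the same distribution of values. After it, the mean was 0.996 ± 0.0698 in toc120 and 4.54 ± 0.516 in WT, and the mutant stood at 22.0% of WT. With equal array medians, the mean was 0.833 ± 0.113 in toc120 and 5.42 ± 1.54 in WT, or 15.4% of WT. The array medians moved with this: they were 0.188 to 0.278 in toc120 and 0.151 to 0.157 in WT as deposited. The probe was 4.26 to 5.88 times as bright as the array median in toc120 and 22.7 to 45.2 times as bright in WT. The groups stayed apart under each of these scalings, with the lowest WT array 3.26 times the highest toc120 array after quantile normalisation and 3.86 times it with equal medians. All 6 toc120 arrays were below all 6 WT arrays for 16.3% of probes after quantile normalisation and for 18% with equal medians.

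**Figure D1:**
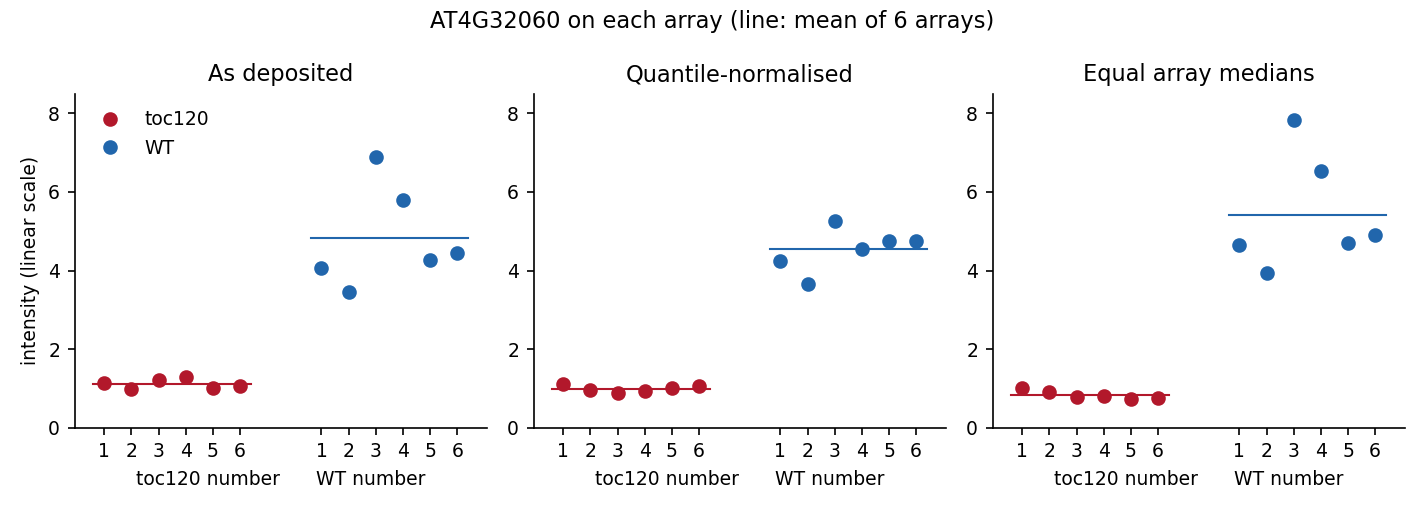
Intensity of the AT4G32060 probe on each array (points, linear scale, with toc120 left of WT) as deposited, after quantile normalisation and with equal array medians, and the mean of 6 arrays (lines). The toc120 arrays sit between 0.736 and 1.28 in all panels and the WT arrays between 3.46 and 7.82.

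On the log2 scale the change was -2.15 (toc120 minus WT, SE 0.11) after quantile normalisation, a 4.45-fold lower level in toc120. This value is from limma with the arrays of neighbouring numbers (1 and 2, 3 and 4, 5 and 6) averaged within each genotype, because such arrays were more alike than others, and with 0.0261 added before taking logs. It was -2.05 as deposited, -2.63 with equal medians, and -1.94 with a larger added constant of 0.240. Over all probes the median change (log2) stood at 0.23 as deposited, at -0.04 with equal medians and at 0 after quantile normalisation. Relative to it, AT4G32060 changed by -2.28 as deposited and -2.59 with equal medians. After quantile normalisation 27 of the 3439 probes had a lower log2 change, and AT4G32060 ranked number 8 from the lowest among the 692 probes with 1 gene. With the larger constant, which damps the changes of dim probes, 8 probes had a lower change and AT4G32060 ranked number 2 among those with 1 gene.

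The rank of the probe within its own array needs no scaling between arrays. In toc120 the probe ranked between number 375 (toc120 1) and number 474 (toc120 3) from the brightest, with a median rank of 428.5. In WT it ranked between number 84 (WT 3) and number 115 (WT 2), with a median of 93. It was thus among the brightest 10.9% to 13.8% of probes on the toc120 arrays and the brightest 2.44% to 3.34% on the WT arrays. The transcript remained among the brighter signals of the mutant. For equal numbers the rank dropped by 273 to 390 places, lowest for number 1 and highest for number 3. The ranks of all 6 toc120 arrays were below those of all 6 WT arrays for 16.4% of probes. The drop in median rank was 335.5 places, against a median absolute shift of 228 places over all probes, and 677 probes moved down by more places.

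**Figure D2:**
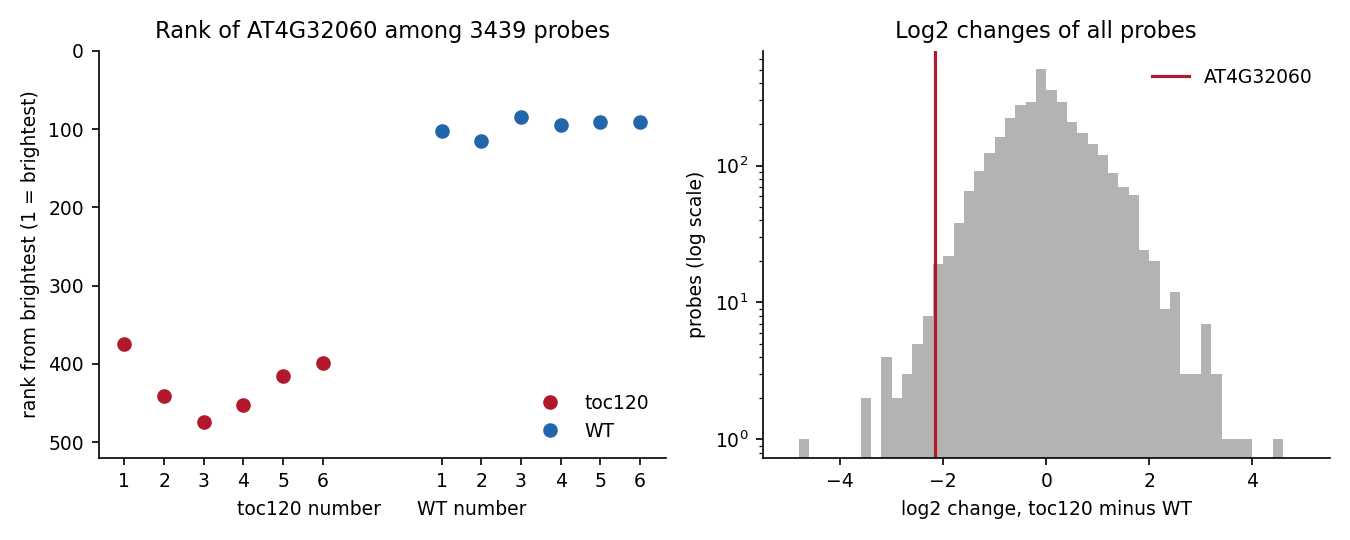
Left, rank of the AT4G32060 probe from the brightest on each array, with toc120 left of WT and rank 1 at the top. Right, number of probes (log axis) by log2 change, toc120 minus WT, after quantile normalisation, with AT4G32060 marked at -2.15, where 27 probes lie lower.

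The spread of the probe within a genotype depended on the scaling in WT. Its log2 SD over the 6 arrays was 0.15 in toc120 and 0.36 in WT as deposited, and 0.18 in toc120 and 0.37 in WT with equal medians. After quantile normalisation it was 0.12 in toc120 and 0.18 in WT, against medians of 0.29 in toc120 and 0.26 in WT over the 2512 probes above 0 on all 12 arrays. Of those probes, after quantile normalisation, 8.48% had a smaller SD in toc120 and 29.3% a smaller SD in WT. Most of them were dimmer than AT4G32060, and its SD was not compared with that of probes of like intensity. As deposited, arrays of neighbouring numbers were 1.04-fold to 1.16-fold apart in toc120 and 1.05-fold to 1.19-fold apart in WT. Other arrays were up to 1.30-fold apart in toc120 and up to 1.99-fold in WT. The widest gap within a genotype, 1.99-fold, was thus smaller than the narrowest gap between the genotypes, 2.70-fold.

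Arrays of equal number in the 2 genotypes moved together for this probe as deposited but not after scaling. As deposited, numbers 3 and 4 were the highest in toc120 and in WT, and 5 of the 6 numbers deviated from the genotype mean in the same direction in both. The arrays numbered 3 and 4 also had the largest summed intensities, 3515 to 3686 against 2641 to 2873 on the other 8 arrays. After quantile normalisation 3 of the 6 numbers deviated in the same direction, and with equal medians 2 of 6. The difference between the genotypes was present for each number. The WT intensity was 3.50 to 5.61 times that of the toc120 array of equal number as deposited, 3.80 to 5.88 times after quantile normalisation, and 4.33 to 10.1 times with equal medians. Number 2 gave the smallest and number 3 the largest ratio under each of the 3 scalings. For number 3, toc120 had a quantile-normalised intensity of 0.894 and WT one of 5.26. For number 2, toc120 had 0.960 and WT had 3.65.

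Calcium handling elsewhere in the cell was thinly covered. A list of 199 loci, drawn up by locus, symbol and name, held the 6 MCU family genes, calcium pumps, exchangers and channels, and calcium sensors such as calmodulins and their kinases. Of these, 3 had a probe of their own and 4 more were only on shared probes. The 6 MCU family genes, most of them for mitochondrial proteins and AT5G66650 for a chloroplast one, had 0 probes of their own and were on 0 shared probes. The 3 measured genes were CML30, GLR2.7 and CML41, and 3 of 3 passed the threshold of an adjusted p of 0.05, 2 lower and 1 higher in toc120, where 31.5% of all 3439 probes passed (16.9% lower and 14.6% higher). The median log2 change of the 3 was -1.21, against 0 for all probes. A second list, of 130 loci, was drawn up for mitochondrial genes such as alternative oxidases, import components and porins, and its matches by symbol or name also took in genes of other kinds, such as TOM1, TOM3, MYB5, MYB101 and THM1. It had 0 members with a probe of their own and 1 on a shared probe. Mitochondrial genes without a matching locus, symbol or name could not enter this list. The count therefore does not show that no mitochondrial gene was measured.

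CML30 is a calmodulin-like calcium sensor that has been localised to mitochondria. Its quantile-normalised intensity ranged from 0.582 to 0.632 in toc120 (median 0.612) and from 1.19 to 1.75 in WT (median 1.42). The groups did not overlap, and WT 1 and WT 2 were the highest of all. Its log2 change was -1.21 (SE 0.14, limma adjusted p = 0.00412, n = 3 pair means each). CML30 did not pass as deposited, where the change was -0.81 (limma adjusted p = 0.0614).

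GLR2.7 is a member of the glutamate receptor-like channels, some of which carry calcium across the plasma membrane. Its intensity ranged from 0.168 to 0.247 in toc120 (median 0.195) and from 0.394 to 0.717 in WT (median 0.605). The lowest WT array was number 3, and it still lay above every toc120 array. Its log2 change was -1.37 (SE 0.21, limma adjusted p = 0.00902, n = 3 pair means each), and GLR2.7 also passed as deposited and with equal medians (limma adjusted p = 0.0176 and 0.0096).

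CML41, a calmodulin-like protein known from plasmodesmata, went the other way. Its intensity ranged from 0.473 to 0.831 in toc120 (median 0.744) and from 0.372 to 0.447 in WT (median 0.397). The lowest toc120 arrays were numbers 1 and 2, close to the highest WT array. Its log2 change was 0.72 (SE 0.18, limma adjusted p = 0.037, n = 3 pair means each). With the number pair as a block in the fit, CML41 did not pass (limma adjusted p = 0.0828), nor did it pass without toc120 1 (limma adjusted p = 0.0751).

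**Figure D3:**
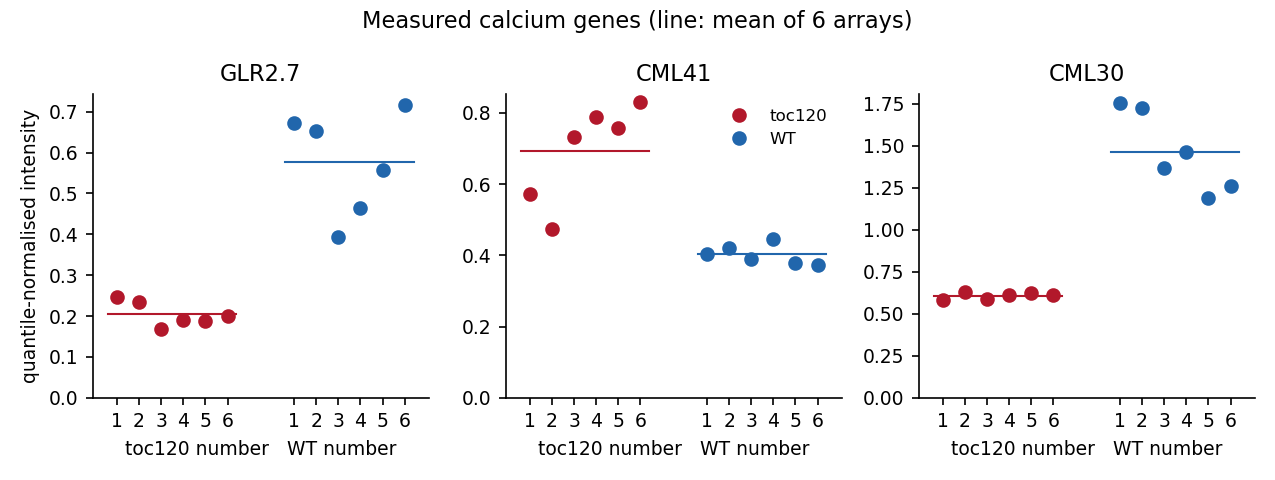
Quantile-normalised intensity of the 3 measured genes of the calcium list on each array (points, axes from 0, toc120 left of WT) with the mean of 6 arrays (lines). GLR2.7 and CML30 are lower on all 6 toc120 arrays and CML41 is higher on all 6.

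The genes whose pattern over the arrays was most like that of AT4G32060 were sought among the 494 other 1-gene probes above 0 on all 12 arrays. Likeness was Pearson's r of log2 quantile-normalised intensity over the 12 arrays, which mainly reflects the difference between the genotypes that all these genes share, and it is given as a description. The 5 highest were AT4G30680 (r = 0.984), AT4G29120 (r = 0.983), XERICO (r = 0.981), AT3G26580 (r = 0.980) and AT5G66090 (r = 0.977). In all, 46 of the 494 genes were above 0.9 and 63 were below -0.9. As deposited 14 were above 0.9 and 52 below -0.9, and with equal medians 58 were above and 32 below. Of these 5, 3 were also among the 5 highest as deposited and 3 among the 5 highest with equal medians; XERICO, AT3G26580 and AT5G66090 were in both.

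Genes of a like pattern changed by different amounts. AT4G30680 averaged 0.307 ± 0.0169 in toc120 and 0.719 ± 0.0609 in WT (SD, n = 3 pair means each), a log2 change of -1.16. AT4G29120 averaged 0.184 ± 0.0083 in toc120 and 0.490 ± 0.0405 in WT, a log2 change of -1.29. AT3G26580 and AT5G66090 had log2 changes of -1.62 and -1.60. XERICO, a RING-type protein linked to abscisic acid, had the widest difference of the 5, -2.93, and AT4G32060 lay between it and the others. As deposited the changes of AT4G30680 and AT4G29120 were -0.66 and -0.75, those of AT3G26580 and AT5G66090 were -1.18 and -1.13, and that of XERICO was -2.61. XERICO ranged from 0.301 to 0.399 in toc120 and from 2.27 to 3.12 in WT.

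The 3 most opposite patterns were those of AT4G05030 (r = -0.996), AT1G34270 (r = -0.992) and AT1G76450 (r = -0.992). AT1G76450 was the brightest of them and averaged 8.35 ± 0.789 in toc120 and 2.75 ± 0.115 in WT (SD, n = 3 pair means each). AT1G34270 averaged 2.17 ± 0.128 in toc120 and 0.605 ± 0.023 in WT. All 3 were higher on every toc120 array than on every WT array, as were 14.7% of all probes after quantile normalisation, with log2 changes of 1.62 for AT4G05030, 1.80 for AT1G34270 and 1.59 for AT1G76450. As deposited these changes were 2.12, 2.13 and 1.53 in the same order, and with equal medians 1.56, 1.55 and 0.94.

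Once the mean of each genotype was removed, likeness to AT4G32060 was weaker and fell on other genes. The 5 highest were AT3G02690 (r = 0.897), AT4G21820 (r = 0.890), AT4G38040 (r = 0.847), AT2G04790 (r = 0.736) and AT2G46910 (r = 0.734) over the 12 arrays. Their differences between the genotypes did not share a direction. AT4G38040 and AT2G46910 were lower in toc120 (log2 changes -0.84 and -1.05, limma adjusted p = 0.0253 and 0.00898). AT4G21820 was higher (log2 change 0.75, limma adjusted p = 0.00346). AT3G02690 and AT2G04790 did not pass (log2 changes -0.26 and -0.29, limma adjusted p = 0.565 and 0.213), and as deposited their changes were 0.25 and 0.11. AT4G38040 lost its call as deposited (limma adjusted p = 0.256), with equal medians (0.0501), with the number pair as a block (0.0836), without toc120 2 (0.0754) and without WT 1 (0.0708). AT2G46910 lost its call as deposited (limma adjusted p = 0.0797). As deposited, and with equal medians, 1 of these 5, AT2G04790, remained among the 5 highest.

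**Figure D4:**
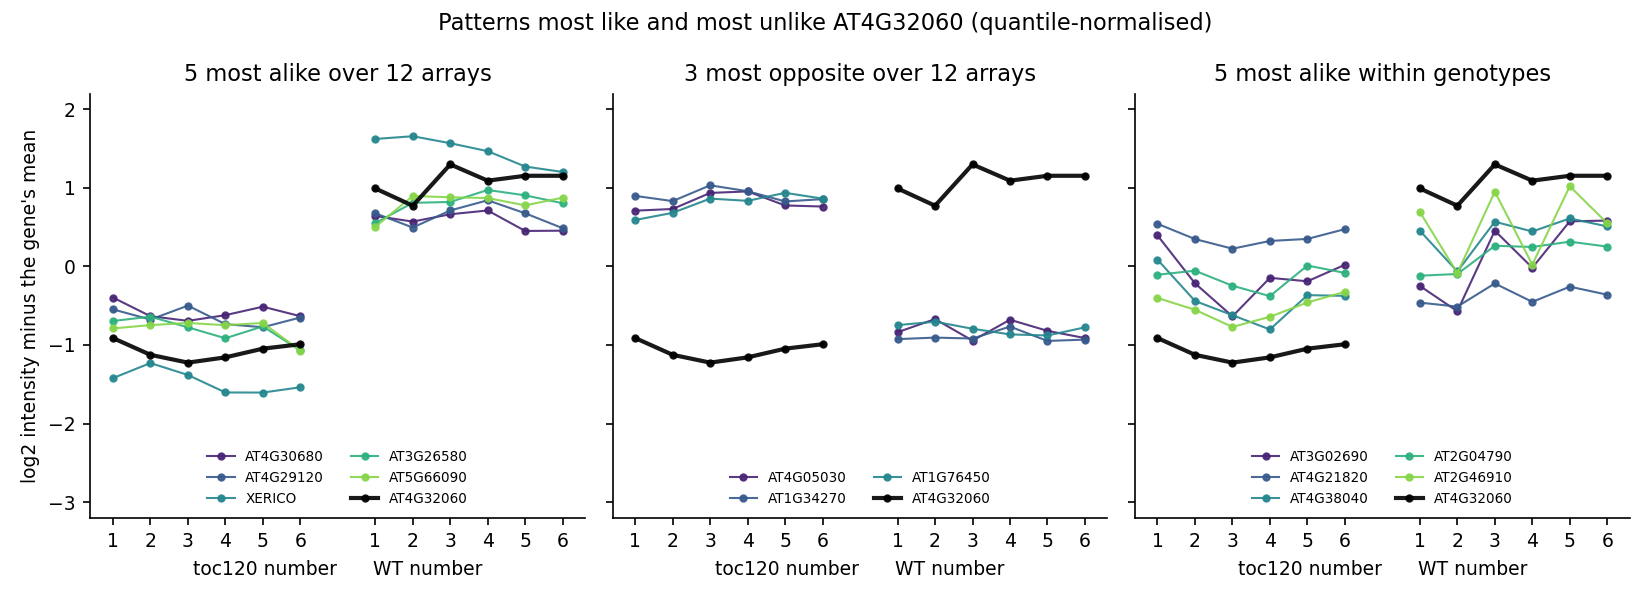
Log2 quantile-normalised intensity minus each gene's mean over the 12 arrays, for AT4G32060 (black) and the genes most like it over 12 arrays, most opposite, and most like it within genotypes, with toc120 left of WT and lines joining a gene's arrays only to guide the eye. The 5 genes of the left panel are low in toc120 like AT4G32060, with r between 0.977 and 0.984, and those of the right panel include AT4G21820, which is higher in toc120.

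AT4G32060 lies on chromosome 4, whereas TOC120 lies on chromosome 3. The 10 nearest measured loci on each side of AT4G32060, in locus order of the TAIR10.1 gene table, showed no common direction. Of these 20 loci, 4 rose and 4 fell in toc120 and 12 did not pass. Of all probes 31.5% passed in either direction, 14.6% higher and 16.9% lower in toc120. Whether these 20 loci differed from all probes in this was not tested. As deposited 6 passed, 5 higher and 1 lower, with AT4G31470 gaining a call (limma adjusted p = 0.0415), and with equal medians 6 passed, 3 higher and 3 lower. After quantile normalisation their median log2 change was 0.22, against 0 for all probes. With the number pair as a block 7 of the 20 passed, AT4G29890 and AT4G30740 losing their calls (limma adjusted p = 0.0731 and 0.106) and AT4G32340 gaining one. With equal medians too AT4G29890 and AT4G30740 did not pass (limma adjusted p = 0.0516 and 0.0592).

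The closest measured loci on either side did not pass. AT4G31930, 14 protein-coding loci before AT4G32060, ranged from 0.137 to 0.281 in toc120 and from 0 to 0.125 in WT, where 2 arrays were listed at 0 (log2 change 1.79, limma adjusted p = 0.106). AT4G32340, 32 loci after it, had median intensities of 0.0725 in toc120 and 0.204 in WT (log2 change -1.38, limma adjusted p = 0.301). Its number 2 arrays stood far above the others in both genotypes, at 1.13 in toc120 and 2.84 in WT, against at most 0.105 on the other toc120 arrays and 0.252 on the other WT arrays. Without number 2 in both genotypes, a check chosen after these values were seen, the log2 change of AT4G32340 was -1.29 and it passed (limma adjusted p = 0.00767), and a fit blocked by number pair also called it (limma adjusted p = 0.0214). The AT4G32060 probe showed no such step: without number 2 its log2 change was -2.15.

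Among the 4 that fell, AT4G33540 had a median of 0.326 in toc120 and 0.839 in WT (log2 change -1.52, limma adjusted p = 0.0089). AT4G30680, also named above for its likeness, had a log2 change of -1.16 and AT4G33500 one of -1.04 (limma adjusted p = 0.0255). AT4G29890 changed by -0.53 on the log2 scale (limma adjusted p = 0.0439). As deposited, AT4G33540 was the only one of these 4 to pass, with limma adjusted p-values of 0.063 for AT4G30680, 0.212 for AT4G33500 and 0.329 for AT4G29890.

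Among the 4 that rose, AT4G30150 had a median of 1.52 in toc120 and 0.452 in WT (log2 change 1.79, limma adjusted p = 0.00683). AT4G35980 ranged from 0.0887 to 0.162 in toc120 and was listed at 0 on all 6 WT arrays, so no fold is given (limma adjusted p = 0.00103). AT4G29750 changed by 0.62 on the log2 scale (limma adjusted p = 0.00714), which did not pass without WT 3 (limma adjusted p = 0.0539). AT4G30740 changed by 0.42 (limma adjusted p = 0.0454) and lost its call without any of 6 single arrays (limma adjusted p from 0.0533 to 0.107). AT4G29890, one of the 4 that fell, lost its call without any of 4 single arrays (limma adjusted p from 0.0505 to 0.0654). These arrays were toc120 2, toc120 3, toc120 6 and WT 6. The other calls among the 20 loci held without each single array, though its neighbour then still stood for the pair. Leaving out a number pair in both genotypes, which leaves fewer samples, gave 3 further fits. AT4G30680 and AT4G35980 passed in 3 of these, AT4G30150 and AT4G33540 in 1 each, and AT4G33500 in 0.

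**Figure D5:**
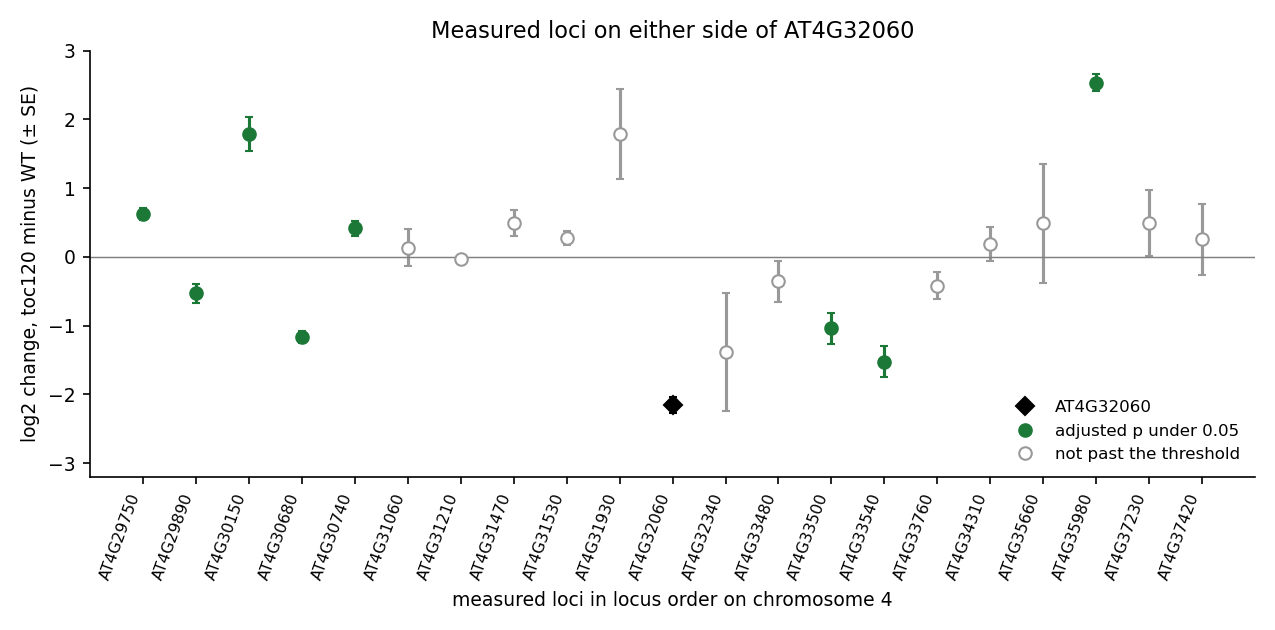
Log2 change, toc120 minus WT, with its SE (bars) for AT4G32060 (diamond) and the 10 nearest measured loci on each side. Loci are in locus order on chromosome 4 and drawn evenly spaced, though they reach up to 581 protein-coding loci from AT4G32060. AT4G32060 is at -2.15, and the 8 filled circles are the loci past the threshold, 4 higher and 4 lower in toc120.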

How the data were processed

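The deposited table holds 1 intensity per probe and array, 3439 probes by 12 arrays, on a linear scale from 0 to 100. How the authors corrected and scaled these intensities is not stated in the labels, and the table has no background values. Precision is limited by the number of arrays. Gene names came from GEO's annotation of the platform (it can be outdated) and were matched to the TAIR10.1 gene table by gene ID, which found 689 loci. Its alternative names served as descriptions for the lists. It holds no sequences, and none are printed. Arrays were quantile-normalised, 0.0261 (the 5th percentile of the positive values) was added, and log2 values were taken. A fold on this scale understates changes of dim probes.

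Neighbouring numbers of a genotype were averaged, leaving 3 pair means each, and limma's lmFit and eBayes (version 3.58.1 under R 4.3.3; two-sided) were run on all 3439 probes with Benjamini-Hochberg adjustment and a threshold of 0.05. Spearman's rho across probes ran from 0.952 to 0.975 between neighbours and from 0.910 to 0.946 between other arrays of a genotype. The labels do not say that neighbours are duplicates. Deviations from the genotype mean correlated with r from 0.217 to 0.348 between equal numbers of the genotypes, and 12 of 12 arrays matched their own number best. Arrays of equal number thus shared part of their deviations. Whether the samples or only the handling of the arrays were paired was not tested. The labels state no pairing, and the main fit includes none. Calls that changed with the number pair as a block are given with the results. The main fit was also run on simulated data with no effect shared by equal numbers of the genotypes. That run therefore cannot speak for paired samples. Plots used matplotlib 3.10.9 (Python 3.11.15).

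The gene, the lists, the tests and the averaging were chosen with earlier results of these data known. The genes named are AT4G32060, the 5 most and 3 least like it over the 12 arrays, the 5 most like it within genotypes, all measured list members, and of the 10 measured loci on each side, the nearest ones and those past the threshold.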

Additional observations from a re-analysis of the deposited data

Results flagged for a closer look

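For 52 groups of 6 arrays (the named genes in each genotype), the gap between an extreme array and its nearest neighbour was divided by the group's range and compared with Dixon's 95% critical value for 6 samples. It was exceeded 6 times, and chance marks about 1 in 20 groups. AT4G32060 was not among them in either genotype. For AT4G32340, toc120 2 (1.13, others 0.0204 to 0.105) had a ratio of 0.924 and WT 2 (2.84, others 0.155 to 0.252) a ratio of 0.964. For AT5G66090, toc120 6 was low (0.353, others 0.435 to 0.458) with a ratio of 0.782, and WT 1 was low (1.11, others 1.34 to 1.46) with a ratio of 0.667. For AT1G34270, WT 4 was high (0.665, others 0.583 to 0.601) with a ratio of 0.778. For AT4G38040, WT 2 was low (0.432, others 0.626 to 0.705) with a ratio of 0.709.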

How the results depend on the processing

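The log2 change of AT4G32060 was -2.15 and moved by more than the spread of its pair means (0.17) under 2 of 8 alternatives, to -2.63 with equal array medians and to -1.94 with the larger constant. Leaving out single arrays gave -2.20 to -2.09, and leaving out a number pair in both genotypes -2.26 to -2.04. With a replicate block the change stayed at -2.15 (SE 0.126 for the number pair with neighbours averaged, SE 0.0917 for the sample number over 12 arrays). Over all probes 1084 passed, 503 higher and 581 lower in toc120. As deposited 899 passed, 710 higher and 189 lower, and with equal medians 914, 370 higher and 544 lower. With the sample number as a block over the 12 arrays 1688 passed, and with the number pair as a block 979. Leaving out single arrays gave 1027 to 1089 calls, and leaving out a number pair in both genotypes 324 (numbers 3 and 4), 494 (5 and 6) and 622 (1 and 2). Fewer samples then remain. Of the 3 calcium genes, 2 to 3 passed without single arrays and 1 to 2 without a number pair, 1 without numbers 3 and 4 and 1 without numbers 5 and 6. Of the 20 chromosome 4 loci, 6 to 8 passed without single arrays and 2 to 6 without a number pair, 4 without numbers 3 and 4 and 2 without numbers 5 and 6. Among the named genes that were tested, the number pair as a block changed the calls of CML41, AT4G38040, AT4G29890, AT4G30740 and AT4G32340, as given above, and no other. The mitochondrial list had no measured member and gives no value. The cause of these shifts was not tested.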
